A study of Mus musculus with 4 samples.

Results

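The genes described here are 10 genes of the contractile actin cytoskeleton and, for Cav1, of caveolae. Most of them are used as markers of smooth muscle cells and of activated fibroblasts. They comprise the actins Acta2 and Actg2 and the actin-binding genes Tagln, Tagln2, Cnn1 and Cnn2. The myosin light chain Myl9, the tropomyosins Tpm1 and Tpm2 and the caveolin Cav1 complete the list. The 10 genes were chosen with earlier results of these data known. All 10 were taken by symbol, through every probe set annotated to that symbol alone. This gave 20 of the 34945 probe sets with 1 symbol, for 10 of 18193 genes. The brightest probe set over the 4 arrays stood for each gene, and all 10 genes passed the filter on low signals, as did 17 of the 20 probe sets.

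RNA came from E14.1 mouse embryonic stem (ES) cells, grown either on blasticidin-resistant fibroblast feeders or on gelatin without feeders, with 1 array for each of 4 groups. On feeders, and again without them, 1 array held cells labelled Sall4 null (delta/-, line KO1) and 1 held Sall4 heterozygous cells (flox/-, line HET18). The medium of all 4 cultures held LIF, and blasticidin selected for active Oct3/4 through a resistance gene placed behind an IRES in that locus. Each genotype was 1 line, so line and genotype cannot be told apart, and whether feeder cells were removed before RNA extraction is not given in the sources used here. In such mixed RNA, fewer cells of a type and less RNA per cell cannot be told apart.

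The signals were linear MAS5 array intensities, and their precision is limited by having 4 arrays in all. Median signals lay between 16.1 and 18, and the ratio of 3' to 5' actin control probe sets between 1.22 and 1.29. The brighter Sall4 probe set read 1452 on the labelled-null array and 781 on the heterozygous array on feeders, and 1671 and 1127 on the same genotypes without feeders. Sall4 signal was thus not lower on the arrays labelled null, and where its probe sets lie relative to the deletion is not given in the sources used here, so each genotype direction given here is that of the labels. The Oct3/4 gene Pou5f1 read between 977 and 1284 on the 4 arrays. Fibroblast markers were summed over 29 genes. The sums were 34438 and 26561 on the labelled-null and heterozygous arrays on feeders, and 9981 and 4661 without feeders. Most of the sums without feeders came from Vim, Fn1, Sparc and Fstl1. These read 4449, 1835, 1304 and 1142 in labelled-null cells, and 1730, 1351, 836 and 277 in heterozygous cells.

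Contraction in smooth muscle cells and in activated fibroblasts rests on actin filaments built with specialised actins and on myosin that is switched on by phosphorylation of its regulatory light chain. Calponins, transgelins and tropomyosins lie along the filaments and tune how myosin and other proteins reach them. Many of these genes carry CArG boxes, the binding motif of serum response factor (SRF), which drives them together with cofactors that sense the pool of free actin. Cultured embryonic fibroblasts are known to express many of them, and a stem cell uses its cytoplasmic actins for shape and attachment. Cav1 is the coat protein of caveolae, small pits of the cell membrane that are abundant in fibroblasts and smooth muscle.

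The promoter windows of RefSeq (build GRCm38.p6), which run from 250 bases before to 50 bases after a start site, held 8 of the 10 genes; Actg2 and Tagln were not among them. Those of 3 genes are printed because they hold the motif of SRF: Acta2 at chr19:34255324-34255623 (minus strand), Myl9 at chr2:156775214-156775513 (plus strand) and Cnn2 at chr10:79988350-79988649 (plus strand). Capitals mark the CArG box (CC, 6 bases that are A or T, GG) and the CArG-like form in which 1 of the 6 core bases is C or G. The second form was added after the windows had been read.
Acta2: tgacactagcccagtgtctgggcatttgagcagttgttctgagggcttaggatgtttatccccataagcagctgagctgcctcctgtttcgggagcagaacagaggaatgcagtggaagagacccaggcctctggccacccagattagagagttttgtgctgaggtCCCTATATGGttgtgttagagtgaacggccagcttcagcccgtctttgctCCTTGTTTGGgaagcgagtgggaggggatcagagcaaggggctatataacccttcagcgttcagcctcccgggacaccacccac
Myl9: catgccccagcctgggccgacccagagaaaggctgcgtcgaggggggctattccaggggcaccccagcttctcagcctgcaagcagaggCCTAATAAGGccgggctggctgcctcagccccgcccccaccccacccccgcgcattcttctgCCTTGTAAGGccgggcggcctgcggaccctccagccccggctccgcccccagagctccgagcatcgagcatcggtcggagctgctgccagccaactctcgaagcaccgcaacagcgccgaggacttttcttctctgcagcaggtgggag
Cnn2: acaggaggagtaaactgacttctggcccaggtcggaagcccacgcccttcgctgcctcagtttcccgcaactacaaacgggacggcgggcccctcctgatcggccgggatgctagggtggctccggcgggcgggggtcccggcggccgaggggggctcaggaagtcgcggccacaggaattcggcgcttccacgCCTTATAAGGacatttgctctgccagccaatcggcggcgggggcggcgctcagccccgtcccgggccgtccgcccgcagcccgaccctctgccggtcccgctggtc
Myl9 held a CArG box that began 161 bases before the start site used by the table and a CArG-like match that began 99 bases before it. Cnn2 held a CArG box 56 bases before its start. Acta2 held CArG-like matches 84 and 34 bases before the start used by the table, which for Acta2 and Myl9 lies inside the annotated gene. The windows of Cnn1, Tagln2, Tpm1, Tpm2 and Cav1 held neither form. Both patterns read the same on either strand. Of all 32851 promoter windows, 1.63% held the CArG box and 8.5% the CArG-like form.

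The first comparison asked which of these genes gave more signal when feeders were present. By limma with a genotype and a feeder term, adjusted over all 12485 genes tested, 4 of 10 genes rose on feeders (Actg2, Cav1, Myl9 and Acta2), 0 fell and 6 did not pass. Among all genes tested, 3.88% were higher and 0.881% lower on feeders by this test. Because the 10 genes were chosen with earlier results of these data known, shares over all genes are a description here and below. They are not a test of the list. The fitted log2 differences of the 10 genes had a median of 0.73, and those of all genes tested a median of 0.03. Both arrays on feeders lay above both without for 5 of the 10 genes, against 27.2% of all genes tested. Differences on the log2 scale were taken after adding 4.6 to each signal, which draws weak signals towards no difference.

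**Figure D1:**
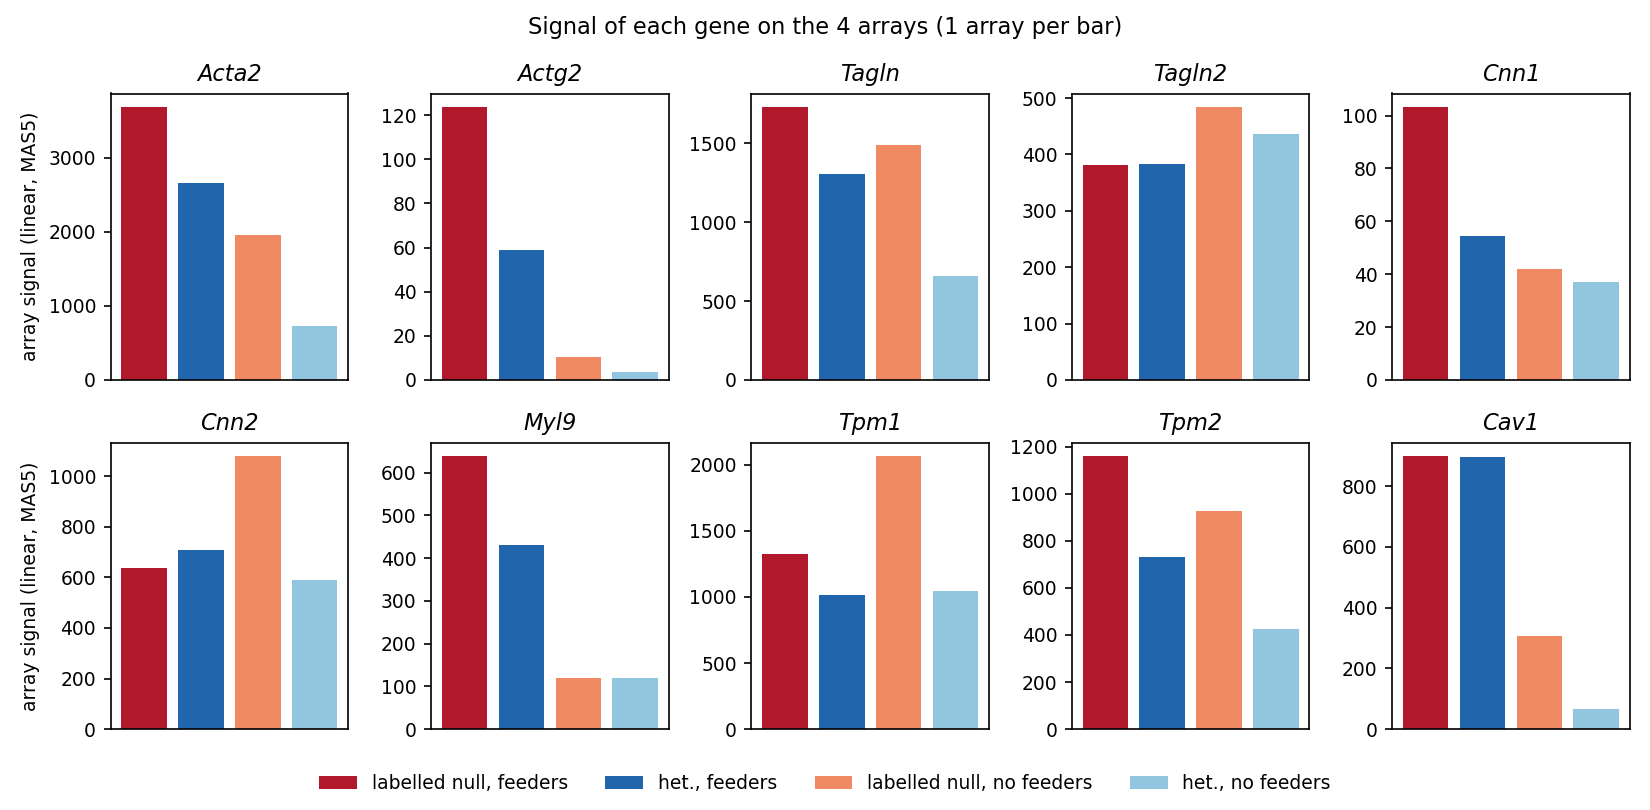
Linear array signal (vertical axes, each starting at 0 with its own scale) of the 10 genes on the 4 arrays, 1 bar per array, so there are no error bars. Acta2, Actg2, Cnn1, Myl9 and Cav1 had both bars on feeders above both bars without feeders, while Tpm1 and Cnn2 had their highest bar on the labelled-null array without feeders.

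Both smooth muscle actins rose on feeders. Actg2, which encodes the gamma actin of visceral smooth muscle, read 123.6 on the labelled-null and 58.7 on the heterozygous array on feeders, against 10.5 and 3.6 without feeders. Both arrays on feeders lay far above both arrays without, where the signals lay under or near the filter signal of 9.46. Actg2 thus passed the filter, a mean over the 4 arrays, through its arrays on feeders. With no filter its adjusted p was 0.0231 (limma). The fitted difference of Actg2, on feeders minus without, was 3.02 (SE 0.26, adjusted p = 0.00443, limma). Acta2, the alpha actin of vascular smooth muscle and of myofibroblasts, read 3679 and 2654 on feeders on the labelled-null and heterozygous arrays, and 1958 and 733 without feeders. It was bright on every array, and the groups with and without feeders did not overlap. Its fitted difference was 1.38 (SE 0.21, adjusted p = 0.0265), with 0.91 between the labelled-null arrays and 1.85 between the heterozygous arrays. In models with 1 factor it was 0.67 without the heterozygous array without feeders (adjusted p = 0.182), and 2.09 without the labelled-null array without feeders (adjusted p = 0.00524). The Acta2 probe set is of the s_at class, which can bind more than 1 transcript. The other Acta2 probe sets were dim, with a highest signal of 26.5.

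The myosin light chain Myl9, the regulatory light chain of smooth muscle and non-muscle myosin, read 638 on the labelled-null and 431 on the heterozygous array on feeders, against 119.5 and 119.1 without feeders. The arrays without feeders were nearly equal, and both arrays on feeders stood well above them. For Myl9 the fit gave a log2 difference of 2.09 (SE 0.19, adjusted p = 0.00569). Cav1 read 898 on the labelled-null and 897 on the heterozygous array on feeders, against 306 and 65.2 without feeders. The genotypes gave almost the same Cav1 signal on feeders but were far apart without them. The fitted Cav1 difference of 2.62 had a wide error (SE 0.47, adjusted p = 0.0411), and the single pairs gave 1.54 in labelled-null and 3.69 in heterozygous cells. In models with 1 factor, the Cav1 difference was 1.54 with the heterozygous array without feeders left out. It was 3.69 with the labelled-null array without feeders left out. With the labelled-null or the heterozygous array on feeders left out, it was 2.61 and 2.62.

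In the calponin family, 0 of 4 genes passed by limma over all genes. Tagln, which encodes the actin-bundling protein transgelin (SM22), read 1731 on the labelled-null and 1307 on the heterozygous array on feeders, and 1492 and 657 without feeders. The groups overlapped, since the labelled-null array without feeders lay above the heterozygous array on feeders. The fitted difference of 0.60 (SE 0.19, adjusted p = 0.147) did not pass. It was 0.012 without the heterozygous array without feeders, and 1.19 without the labelled-null array without feeders, where it passed (adjusted p = 0.0313). Cnn1, the calponin of differentiated smooth muscle, which inhibits the myosin ATPase, read 103.2 and 54.4 on feeders in labelled-null and heterozygous cells, and 42 and 37.2 without feeders. Both Cnn1 signals on feeders lay above both without, with the labelled-null array on feeders standing apart, and the fitted difference of 0.85 (SE 0.25, adjusted p = 0.135) did not pass. With that array left out it was 0.42. Cnn2, a calponin found in smooth muscle and in many other cells, read 635 and 706 on feeders in labelled-null and heterozygous cells, and 1078 and 588.5 without feeders. Its highest signal thus came from labelled-null cells without feeders, and the groups overlapped. Tagln2, a relative of transgelin with a broad expression, read 381 and 384 on feeders in labelled-null and heterozygous cells, and 484 and 437 without feeders. Both Tagln2 signals on feeders were slightly lower than both without. The fitted differences were -0.25 for Cnn2 (SE 0.24, adjusted p = 0.600) and -0.26 for Tagln2 (SE 0.14, adjusted p = 0.339), and neither passed.

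The tropomyosins, coiled-coil proteins that run along the actin filament and govern its access to myosin, gave different patterns, and neither passed. Tpm2 read 1159 on the labelled-null and 732 on the heterozygous array on feeders, and 926 and 426 without feeders. Each genotype was higher on feeders, but the groups overlapped, and the fitted log2 difference of 0.55 (SE 0.15, adjusted p = 0.11) did not pass. Tpm1 read 1322 and 1018 on feeders in labelled-null and heterozygous cells, against 2062 and 1043 without feeders. The labelled-null array without feeders stood above the other 3. The fitted Tpm1 difference was -0.34 (SE 0.16, adjusted p = 0.282).

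Genes with several probe sets gave further readings, tested in a fit of every probe set with 1 symbol. For Tpm1, another bright probe set had a log2 difference of -0.34 and an adjusted p of 0.362. A weaker Tpm1 probe set read 75.2 on the labelled-null and 65.3 on the heterozygous array on feeders, and 230 and 138 without feeders. This weaker probe set fell on feeders by 1.29 on the log2 scale (adjusted p = 0.0195, limma over every probe set), so the probe sets of Tpm1 did not give the same call. The 3 other Tpm2 probe sets had differences of 0.70, 1.07 and -0.40, with adjusted p-values of 0.0788, 0.152 and 0.502, the last for a dim one. The other Tagln2 probe set above the filter differed by 0.0056. Which transcripts of these genes each probe set binds is not given in the sources used here.

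**Figure D2:**
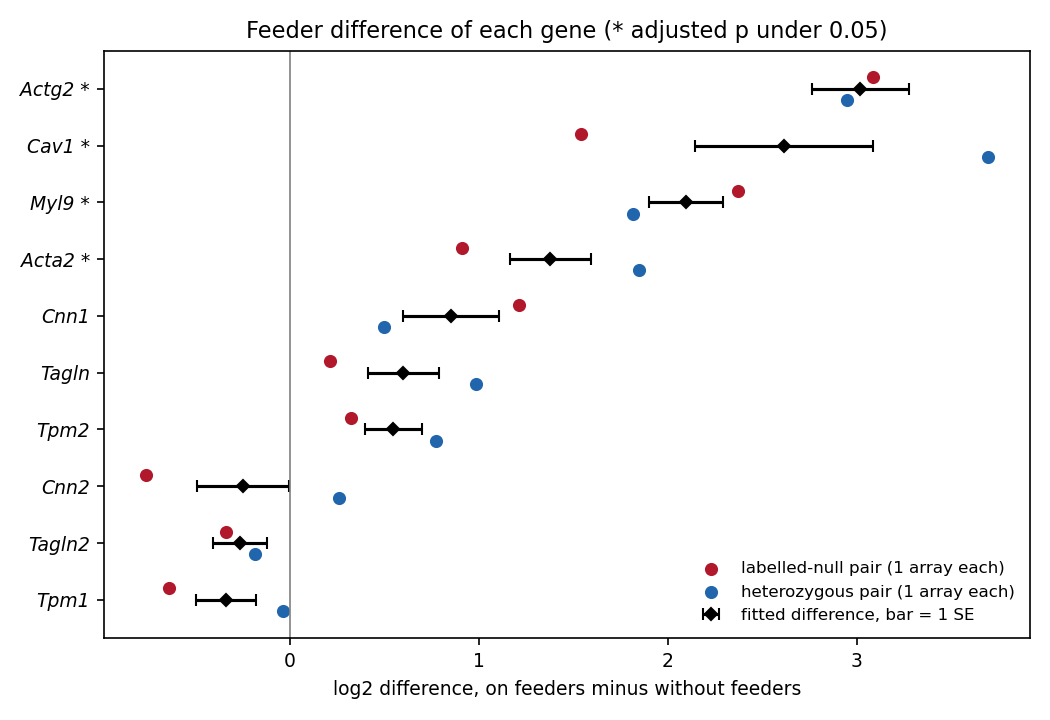
Log2 difference between cultures on feeders and without feeders (horizontal axis) for each gene, with the fitted difference and its SE as diamonds and the single pairs of arrays of each genotype as circles. The 4 genes with a star passed the limma test, and the circles of Cav1 lie at 1.54 and 3.69.

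The calls leaned on the settings of the test. Among alternatives that kept all 4 arrays, Actg2 was called under each of the 9 in which it was tested. Myl9 was called under 9 of 10 and lost without the variance trend (adjusted p = 0.0556). Acta2 was called under 6 of 10 and Cav1 under 4, with adjusted p-values from 0.0129 to 0.232 and from 0.0215 to 0.156. Both were lost with no filter, with the stricter filter, without the trend and in the model with 1 factor, and Cav1 also with an offset of 1 and when every gene was read by the mean of its probe sets. With 1 array left out, which requires a model with 1 factor, the count was 0 of 10 without the labelled-null array on feeders, 1 without the heterozygous array on feeders, 5 without the labelled-null array without feeders and 2 without the heterozygous array without feeders. That model called 2 with all 4 arrays. It has no genotype term, so with 1 array left out part of the genotype difference enters its feeder difference. Myl9 kept its call in 3 of these 4 fits, Cav1 in 2, and Actg2 and Acta2 in 1 each. The adjusted p of Actg2 was 0.21 and 0.0895 without the labelled-null and the heterozygous array on feeders, 0.0515 without the heterozygous array without feeders, and 0.0161 in the fit that kept its call, without the labelled-null array without feeders. Its difference lay between 2.51 and 3.53 in these fits.

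The second question was how much of the signal on feeders was present without feeders. For each gene this share was the signal without feeders as a percentage of the signal on feeders in the same genotype, with 1 array on each side and no test. Over the 10 genes the median share was 66.6% in labelled-null and 54.3% in heterozygous cells. Actg2 had the lowest share, 8.5% in labelled-null and 6.13% in heterozygous cells, from weak signals without feeders. With the 25th percentile of all signals, 4.6, subtracted from both arrays, its labelled-null share was 4.96%. Its heterozygous share could then not be computed, since the signal of 3.6 lay under that value. Myl9 had a share of 18.7% in labelled-null and 27.7% in heterozygous cells. For Cav1 the share was 34% in labelled-null cells and 7.27% in heterozygous cells, the widest gap between genotypes among the 4 genes that rose. Acta2 kept 53.2% in labelled-null and 27.6% in heterozygous cells.

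For 5 of the 6 genes that did not pass, the share was 50.3% or more in both genotypes. The exception was Cnn1, whose share was 40.7% in labelled-null and 68.4% in heterozygous cells. Tagln and Tpm2 kept 86.2% and 79.9% in labelled-null cells, and 50.3% and 58.2% in heterozygous cells. Shares above 100% mean a higher signal without feeders than with them. They were found in both genotypes for Tagln2, at 127% in labelled-null and 114% in heterozygous cells, and for Tpm1, at 156% and 102% in the same order. Cnn2 had a share of 170% in labelled-null and 83.3% in heterozygous cells.

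These shares stood above those of most fibroblast markers, the defining genes of the feeder cell type. Over 29 fibroblast markers, of which 27 rose on feeders by limma and 0 fell, the median share was 7.17% in labelled-null and 3.13% in heterozygous cells. The periostin gene Postn read 1671 and 1136 on feeders in labelled-null and heterozygous cells, and 12.8 and 1.4 without feeders. The collagen gene Col3a1 read 2777 and 1992 on feeders, and 244 and 19.2 without feeders, and Col1a1 read 1136 and 627 on feeders, and 36 and 1.5 without. No fibroblast marker was listed at 0 on any array. Without feeders, the signal of 2 markers in labelled-null and of 10 in heterozygous cells lay under the filter signal of 9.46, so their shares rest on weak signals. The matrix genes Sparc and Fn1 and the intermediate filament gene Vim, which many cell types express, had higher shares. These were 41.8%, 51.3% and 103% in labelled-null cells, and 35.1%, 40.7% and 45.6% in heterozygous cells. Fstl1 had shares of 51.8% in labelled-null and 19.1% in heterozygous cells. Twist1, a marker that did not pass, had 66.7% and 63.5%, the latter the highest of the 29 in heterozygous cells.

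Set against the same 29 markers, Tagln and Tpm2 had a higher share than 28 markers in each genotype. Acta2 lay above 27 markers in labelled-null and above 25 in heterozygous cells. Myl9 lay above 23 and 25 in the same order, and Cav1 above 24 and 19. Actg2, the lowest of the 10, lay above 15 markers in labelled-null and above 18 in heterozygous cells, near the middle of the marker list. Whether the signals of the markers and of the 10 genes without feeders came from the same cells was not tested.

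**Figure D3:**
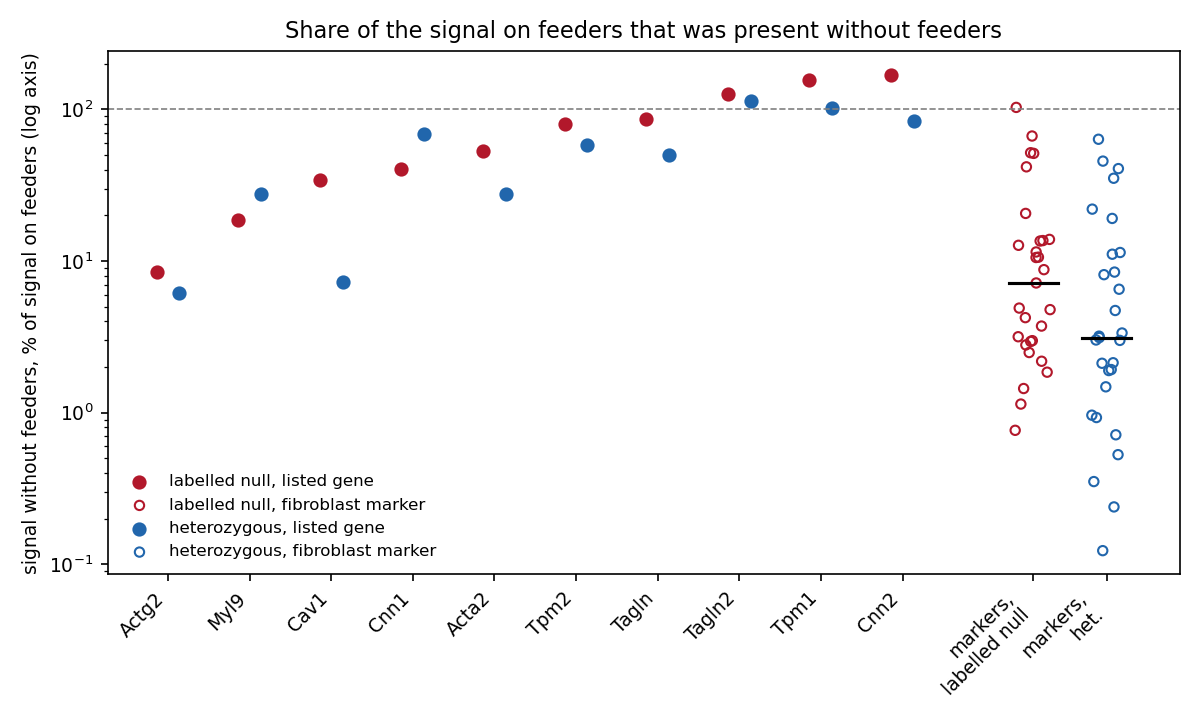
Signal without feeders as a percentage of the signal on feeders (log axis) for the 10 genes as filled circles and for 29 fibroblast markers as open circles, with black lines at the marker medians of 7.17% and 3.13%. The dashed line marks 100%, and Actg2 is the gene nearest to the marker medians in labelled-null cells.

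The third comparison set cells labelled null against heterozygous cells. By limma over all genes, 0 of 10 genes changed, where 0.032% of all genes tested did, none of them higher. At an unadjusted p under 0.05, Acta2, Actg2, Tagln, Tpm1 and Tpm2 were higher, 5 of 10, against 5.8% of all genes tested. The fitted log2 differences had a median of 0.73, and 0.01 over all genes tested. The lowest adjusted p was that of Tpm2, at a difference of 0.89 (SE 0.15, adjusted p = 0.152). Cav1 had the largest fitted difference of the 10, 1.08 with a wide error (SE 0.47, adjusted p = 0.441). Tagln, Acta2 and Actg2 had fitted differences of 0.79, 0.94 and 0.95 and adjusted p-values between 0.217 and 0.26. The other Acta2 probe sets, which were dim, read lower on the labelled-null arrays. The one above the filter had a difference of -0.90 (adjusted p = 0.406, limma over every probe set). With 1 array left out, in models with 1 factor, the difference ran from 0.30 to 1.28 for Tagln, from 0.017 to 1.87 for Acta2 and from -0.59 to 2.49 for Actg2. It ran from 0.36 to 1.00 for Tpm1 and from 0.50 to 1.27 for Tpm2. These models had no feeder term and unequal groups, so part of the feeder difference entered the genotype difference. The lowest values of Tagln, Acta2 and Tpm2 came without the heterozygous array without feeders, that of Tpm1 without the labelled-null array without feeders and that of Actg2 without the labelled-null array on feeders. Both labelled-null arrays lay above both heterozygous arrays for Tagln, Tpm1 and Tpm2, 3 of 10 genes, against 15.1% of all genes tested.

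Without feeders, all 10 genes had a higher signal on the labelled-null array than on the heterozygous array, 1 array against 1, where 50.2% of all genes tested were higher. The ratio of signals was 4.69 for Cav1, 2.92 for Actg2, 2.67 for Acta2, 2.27 for Tagln and 2.17 for Tpm2. It was 1.98 for Tpm1 and 1.83 for Cnn2, and between 1.00 and 1.13 for Myl9, Tagln2 and Cnn1. On the log2 scale with the added 4.6, 4 of the 10 genes were at least 2-fold higher in labelled-null cells, against 4.21% of all genes tested. Actg2 was not among these 4, since both of its signals were weak. Fibroblast markers moved in the same direction in this pair, with 24 of 29 higher and a median log2 difference of 1.10, against 0.93 for the 10 genes. So did 18 of 26 other smooth muscle genes (median 0.55), 7 of 7 caveola genes (0.53) and 5 of 6 genes of SRF and its cofactors (0.49). Of the other actins, calponins, tropomyosins and myosin chains, 10 of 16 were higher (0.21). ES cell markers went the other way, with 1 of 16 higher and a median of -0.35. The part of these lists in the difference was not tested.

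On feeders the differences were smaller. The labelled-null array was higher for 8 of the 10 genes, where 51% of all genes tested were higher. Actg2 had a ratio of 2.11 and was the 1 gene at least 2-fold higher on the log2 scale, against 1.52% of all genes tested. The ratio was 1.90 for Cnn1, 1.58 for Tpm2, 1.48 for Myl9 and 1.39 for Acta2. Cav1 had a ratio of 1.00, in contrast to 4.69 without feeders, while Myl9 went the other way, at 1.48 on feeders and 1.00 without. The median log2 difference was 0.44 on feeders and 0.93 without. Fibroblast markers had a median of 0.44 on feeders, with 26 of 29 higher. The median was 0.25 for caveola genes (6 of 7 higher) and -0.03 for other smooth muscle genes (12 of 26 higher). For ES cell markers it was -0.28, with 5 of 16 higher. With 1 array per group, the difference between the feeder conditions could not be tested.

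**Figure D4:**
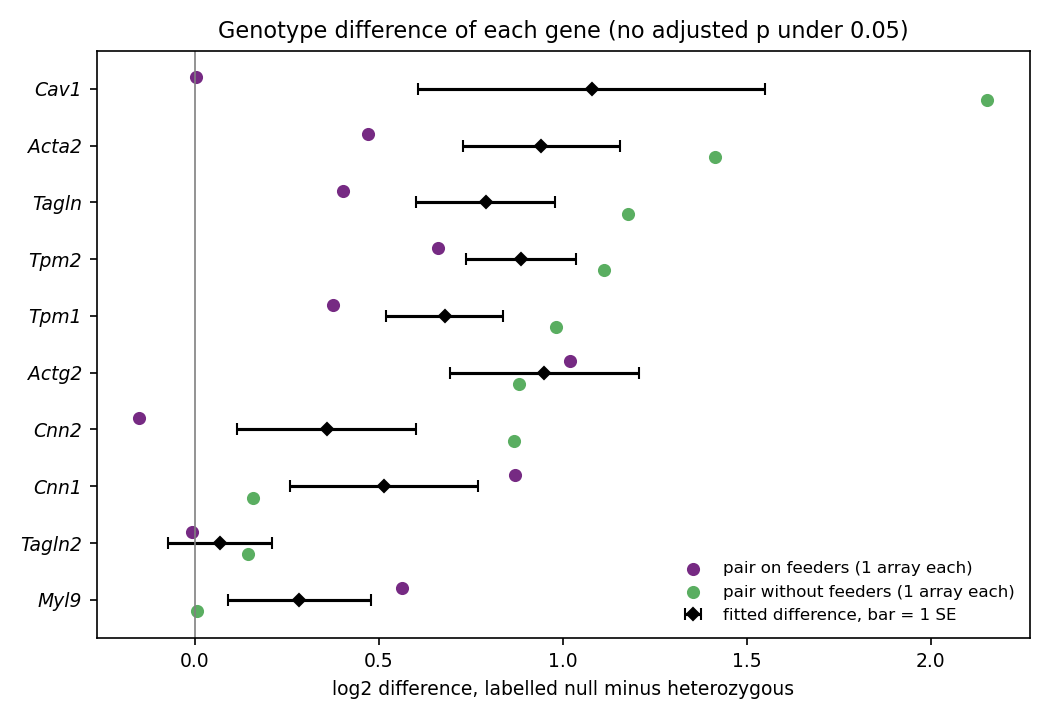
Log2 difference between cells labelled null and heterozygous cells (horizontal axis) for each gene, with the fitted difference and its SE as diamonds and the single pairs on feeders and without feeders as circles. All 10 circles without feeders lie at or above 0, from 0.0047 for Myl9 to 2.15 for Cav1.

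Other genes of the same machinery, and of caveolae, were taken from lists that had been drawn up with earlier results of these data known. For this list and those below, 3.88% of all genes tested were higher and 0.881% lower on feeders, with a median log2 difference of 0.03. Of 26 tested smooth muscle genes outside the 10, 3 rose on feeders, 1 fell and 22 did not pass, with a median log2 difference of 0.36. The integrin gene Itga8 rose by 2.11 (SE 0.24, adjusted p = 0.0105), Pgm5, which encodes a protein of adherens-type junctions, by 1.98 (SE 0.33, adjusted p = 0.0334), and Svil, which encodes the actin-membrane linker supervillin, by 1.26 (SE 0.18, adjusted p = 0.0208). Pgm5 read 50 and 33.2 on feeders in labelled-null and heterozygous cells, and 13.3 and 2.8 without feeders. Like Actg2, it passed the filter through its arrays on feeders. Pdlim7, a scaffold of the actin cytoskeleton, fell by 0.98 (SE 0.19, adjusted p = 0.0496). Mylk, the kinase that phosphorylates the myosin light chain, read 51 and 30.4 on feeders in labelled-null and heterozygous cells, against 2 and 8.1 without feeders, and did not pass (2.27, SE 0.46, adjusted p = 0.0538).

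Myh11 and Lmod1, markers of differentiated smooth muscle, were weak. Myh11, the smooth muscle myosin heavy chain, read 11.7 and 9.3 on feeders in labelled-null and heterozygous cells, and 1.2 and 0.8 without feeders, and lay below the filter. Lmod1, an actin nucleator of smooth muscle, had a highest signal of 12.1 and was also below the filter. Des and Smtn, for the muscle filament protein desmin and for smoothelin, were tested and did not pass, at log2 differences of 0.93 and -0.07. Des read 36.3 and 32.8 on feeders in labelled-null and heterozygous cells, and 31.6 and 7 without feeders. Smtn read 37.9 and 45.7 on feeders, and 34 and 56.4 without, in the same order.

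Among 16 tested genes of other actins, calponins, tropomyosins and myosin chains, 0 rose on feeders by limma, 1 fell and 15 did not pass, with a median log2 difference of -0.06. The gene that fell was Actc1, the cardiac actin, which read 15.2 and 4.8 on feeders in labelled-null and heterozygous cells, against 70.7 and 36.7 without feeders (-2.03, SE 0.27, adjusted p = 0.0174). The cytoplasmic actin gene Actb read 5235 and 4949 on feeders, and 5976 and 4814 without feeders, a fitted difference of -0.08 (SE 0.07, adjusted p = 0.600). Actb was bright on all arrays and its groups overlapped, unlike Acta2.

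Of 6 tested genes of SRF and its cofactors, 0 rose and 0 fell on feeders by limma. Srf read 88.7 and 177 on feeders in labelled-null and heterozygous cells, and 155 and 151 without feeders, with its lowest signal on the labelled-null array on feeders. Elk3, an ETS-family partner of SRF, had the largest fitted difference of the list, 0.75 (SE 0.28, adjusted p = 0.196). Myocd, the muscle-restricted cofactor of SRF, lay below the filter, with 2 and 5.4 on feeders in labelled-null and heterozygous cells, and 20.7 and 0.6 without.

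Of 7 tested caveola genes, 2 rose on feeders, 0 fell and 5 did not pass, with a median log2 difference of 0.79. Cavin2, which encodes a coat protein that bends the caveolar membrane, read 411 and 327 on feeders in labelled-null and heterozygous cells, against 6.4 and 4.8 without feeders (5.19, SE 0.21, adjusted p = 6.56e-04). Both Cavin2 signals without feeders lay under the filter signal of 9.46, so no share is given for it. Cavin3, another cavin, rose by 1.87 (SE 0.35, adjusted p = 0.0444). Cav2, the partner of Cav1, read 177.5 and 208 on feeders in labelled-null and heterozygous cells, and 84.5 and 23.4 without feeders. Its order on the arrays without feeders was that of Cav1, labelled null above heterozygous, and its fitted difference did not pass (1.98, SE 0.44, adjusted p = 0.069).

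**Figure D5:**
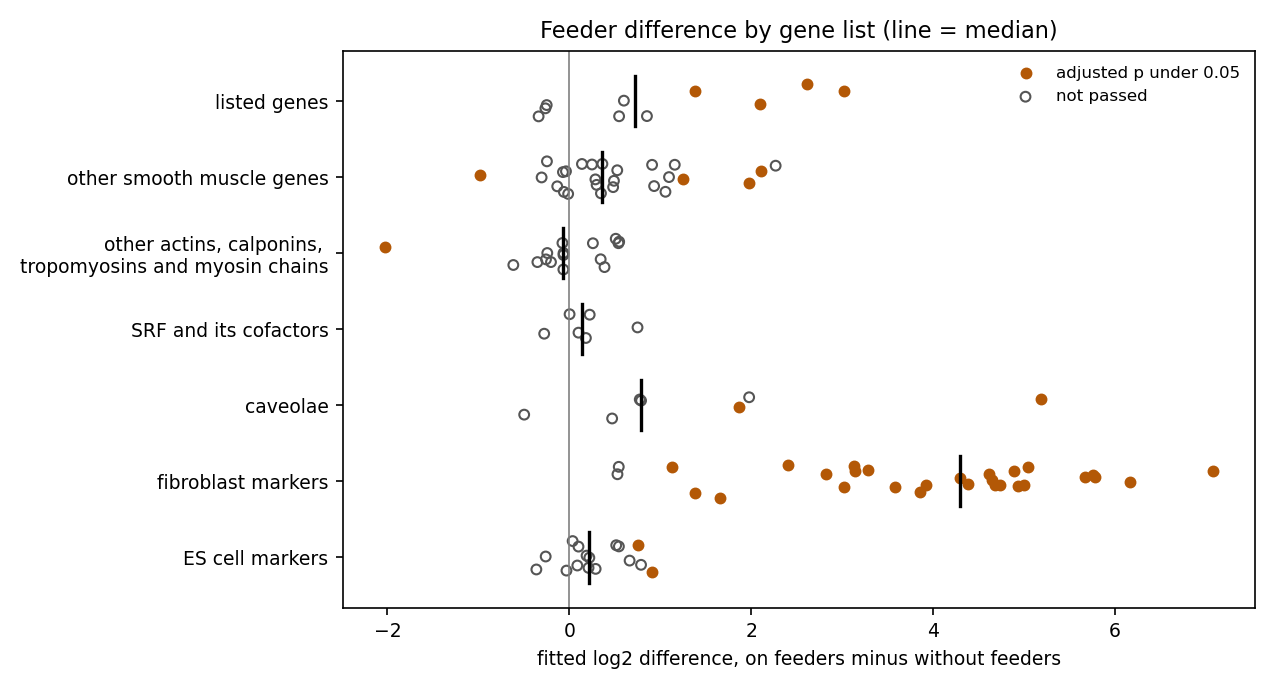
Fitted log2 difference between cultures on feeders and without feeders (horizontal axis) for the tested genes of each list, with a black line at each median and filled points for genes with an adjusted p under 0.05. The 10 listed genes have a median of 0.73, the other smooth muscle genes 0.36, the caveola genes 0.79 and the fibroblast markers 4.30.

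Muscle cells and pericytes also express several of the 10 genes. Of 6 tested cardiomyocyte, 5 skeletal muscle and 4 pericyte genes, 0 passed in either direction by limma. The median log2 difference by feeders was 0.03 for cardiomyocyte, -0.05 for skeletal muscle and 0.82 for pericyte genes. That of the 10 genes was 0.73. The pericyte genes Rgs5, a regulator of G protein signalling, and Cspg4, the NG2 proteoglycan, had differences of 1.30 and 1.23 (adjusted p = 0.104 and 0.0966). Mcam and Notch3, the other tested pericyte genes, had differences of 0.41 and -0.06 (adjusted p = 0.303 and 0.889). Notch3 was the brightest of them, at 130.6 and 111 on feeders in labelled-null and heterozygous cells, and 119.3 and 132.3 without feeders. Rgs5 read 17.8 and 23.8 on feeders in labelled-null and heterozygous cells, and 3.8 and 7.9 without feeders, and Cspg4 read 31 and 31.8 on feeders, and 14 and 8.1 without. The part of these markers in the result was not tested. The sums of these lists over all genes on the array ran from 106 to 158 for cardiomyocyte, from 805 to 976 for skeletal muscle and from 202 to 277 for pericyte markers on the 4 arrays. The skeletal muscle sum was mostly that of Mylpf, which read between 731 and 898, while Myod1 and Myog read at most 11 and 2.3. Of 16 ES cell markers, 2 rose on feeders, Klf4 by 0.91 and Klf2 by 0.76 on the log2 scale, and 14 did not pass. Of 9 tested endoderm markers 0 passed, though their median log2 difference by feeders was -0.65. On feeders, 1 of the 9 was higher in the labelled-null pair and 3 in the heterozygous pair.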

How the data were processed

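Per the submitters' processing notes, the deposited values are linear MAS5 signals (array intensity), here for 45101 probe sets on 4 arrays, with no version and no detection calls. Each array had a 2% trimmed mean of 100, and the deposited intensities were left at that scale. Control probe sets (64), probe sets with several symbols (932) and probe sets not listed in the platform annotation (9160) were left out.

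To each signal 4.6, the 25th percentile over all arrays, was added before taking log2. The brightest probe set stood for its gene. Genes under the 40th percentile of probe sets (log2 3.81) were left out, and 12485 were tested. The filter used the mean over all 4 arrays. Actg2, Pgm5, Mylk, Cavin2, Rgs5, Postn, Lyz2, Actc1 and Kdr, among others, passed it through the feeder condition where they were high. A linear model with genotype and feeder terms was fitted in R 4.3.3 by lmFit of limma 3.58.1, and variances were moderated by eBayes with a trend. Tests were two-sided, with Benjamini-Hochberg adjustment over all genes and a threshold of 0.05. The fit had 1 residual degree of freedom, to which eBayes added 4.75, and that residual is the difference between the feeder effects of the genotypes. No group had replicates, so p-values do not measure the spread between cultures. The code was tested on simulated data.

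The 10 genes and the lists were chosen with earlier results of these data known. The named genes were all 10, up to 4 genes of each list with the largest feeder difference, a few fixed genes, and the 5 genes nearest to the median profile. Genes named beyond these (Pdlim7, Des, Smtn, Lmod1, Cavin3, Cav2, Sparc, Fn1, Vim, Fstl1, Twist1, Myod1, Myog) were chosen after their values were seen. Alternatives changed the offset, filter, scaling, choice of probe set, variance trend, model and arrays. Gene names came from the platform annotation and were updated through RefSeq identifiers, and sequences came from RefSeq GRCm38.p6.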

Additional observations from a re-analysis of the deposited data

Results flagged for a closer look

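Cnn2, a calponin gene, had a feeder difference of opposite sign in the 2 genotypes. Its log2 difference was -0.76 between the labelled-null arrays and 0.26 between the heterozygous arrays, so that the first minus the second was -1.02. With 1 array per group this was not tested.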

How the results depend on the processing

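Each group held 1 array, so there was no replicate number to block on. The genotype term of the main fit already paired each array on feeders with the one without in the same line. The count of the 10 genes called by feeders was 4, and it fell to 2 with no filter, 1 with the filter at the 60th percentile, 1 without the variance trend and 2 in the model with 1 factor. With 1 array left out it ran from 0 to 5. The count between genotypes was 0 under each alternative run. Over all genes the feeder count was 595, against 1354 with every probe set tested, 384 with the mean of probe sets, 269 and 268 with no filter and the stricter filter, 183 without the trend and 231 with 1 factor, and the genotype count was 4, against 14 with every probe set, 7 with quantile normalization or median centring, 6 with the mean of probe sets and 0 with the other filters, without the trend or with 1 factor. With 1 array left out these ran from 23 to 534 by feeders and were 0 between genotypes.

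The sign of some differences turned, none of them past the threshold. By feeders, with 1 array left out, Cnn2 ran from -0.68 to 0.19, Tpm1 from -0.83 to 0.15 and Tpm2 from -0.0082 to 1.10, Cnn2 and Tpm1 turning without the labelled-null and Tpm2 without the heterozygous array without feeders. Between genotypes, the mean of probe sets gave -0.13 for Acta2, whose added probe sets were dim, and -0.015 for Tagln2. With 1 array left out, the range was -0.59 to 2.49 for Actg2 (negative without the labelled-null array on feeders and, at -0.52, without the heterozygous array without feeders), -0.90 to 1.47 for Myl9 (likewise, at -0.62), -0.092 to 1.12 for Cnn1, -0.10 to 0.24 for Tagln2 (also -0.025 without the heterozygous array on feeders), -0.021 to 0.74 for Cnn2 and -0.77 to 2.92 for Cav1. Apart from the mean of probe sets, these fits had fewer arrays and 1 factor. With unequal groups and 1 factor, part of the difference by the other factor entered each fitted difference. Within each feeder condition, the labelled-null signals of Actg2, Myl9, Cnn1 and Cav1 were above the heterozygous ones. The gap was slight for Myl9 without feeders and for Cav1 on feeders. For Cnn2 and Tagln2 the labelled-null signal was higher without feeders only. Median shares stayed between 65.4% and 66.6% in labelled-null and between 52.5% and 58% in heterozygous cells, the last without Actg2, whose signal lay under the subtracted value and whose labelled-null share moved to 4.96%. Signals near the offset, as for Actg2 without feeders, limit what a ratio can show.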

Other observations

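Nearest to the median pattern of the 10 genes over the 4 arrays were Rhobtb1, Pde10a, Armcx3, Zfp467 and Ptprd. Their Euclidean distances of centred log2 values were 0.06, 0.09, 0.10, 0.11 and 0.14. Armcx3 read 235 and 139 on feeders in labelled-null and heterozygous cells, and 138 and 73.3 without feeders. Among the 10 genes themselves Tpm2 and Tagln lay nearest to the median pattern, at 0.24 and 0.30, and Actg2 and Cav1 farthest, at 2.27 and 2.09. With 4 arrays this is a description only.

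Outside the contractile genes, Lyz2, which encodes the lysozyme of macrophages, read 168 and 142 on feeders in labelled-null and heterozygous cells, against 8.6 and 1.6 without feeders, and rose by 4.14 on the log2 scale (SE 0.30, adjusted p = 0.00285, limma). It was the 1 of 4 tested macrophage markers that passed. Kdr, the VEGF receptor of endothelial and early mesodermal cells, read 9.5 and 1.5 on feeders, and 40.7 and 25.3 without feeders, and fell by 1.99 (SE 0.34, adjusted p = 0.037), the 1 of 6 tested endothelial markers that passed.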
